A study of Mus musculus with 2 samples.

Results

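The 10 genes described here encode proteins of the BCL2 family, which sets whether a cell keeps its mitochondria intact or dies by apoptosis. They were chosen by symbol, and all 10 were found among the 48321 gene symbols listed in both libraries. *Bcl2*, *Bcl2l1*, *Mcl1*, and *Bcl2a1b* encode antiapoptotic members, *Bcl2l11*, *Bbc3*, *Bid*, and *Bad* encode BH3-only members, and *Bax* and *Bak1* encode the effectors. RNA-seq was done on 2 replicate libraries of sorted CD4- mature thymocytes, and no other group was sequenced in this series. The mice are labelled *MHC-II0:CD8ab Tg* on the C57Bl/6 strain. Both libraries thus share the lack of MHC class II (*I-Ab-/-*), CD8α and CD8β cDNAs in the *Rosa26* locus (*Rosa26 8a/8b*), disruption of both endogenous *Cd8* copies (*Cd8 Δab/Δab*), and *Cd4-Cre*, which switches on the cDNAs from the CD4+CD8+ thymocyte stage on. Mature thymocytes were gated as CD24lo TCRβhi. The ages and sexes of the mice and whether animals were pooled are not given in the sources used here. Sex-linked transcripts, given below, show that the libraries came from mice of different sex, so replicate and sex cannot be told apart. The p-values below compare only these libraries.

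In the mitochondrial pathway of apoptosis, BAX and BAK form pores in the outer mitochondrial membrane, and cytochrome c then leaves and activates caspases. The antiapoptotic proteins hold BAX, BAK, and the BH3-only proteins in a groove on their surface. BH3-only proteins, which are made or activated on stress, antigen receptor signalling, or loss of cytokine, fill this groove or act on the effectors directly. In the thymus, BIM, the product of *Bcl2l11*, is known for its part in negative selection, while MCL1 and BCL2 are known for keeping maturing thymocytes alive.

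A feature of the family is the BH3 core, part of a short helix that in BH3-only proteins fits the groove. Its codons are shown for the members in which the search described here found a match. A leucine codon, 3 codons of any kind, a glycine codon, and an aspartate codon were searched in the reading frame of the coding sequence of each member in GENCODE M21 (GRCm38), and alanine or serine was also allowed at the fifth codon. Of the 10 members, 7 had a match with glycine and 9 had a match of either kind, and each of the 9 had 1 match. The match is short, and 13.2% of the 21796 coding genes searched held one with glycine and 33.7% one of either kind. *Bcl2a1b* had no match to these letters. In the stretches below, which lie in coding exons, capitals mark the 18 bases of the match, with 6 bases on either side, 5′ to 3′ on the gene's strand.
Bcl2 (chr1:106712578-106712607, minus strand): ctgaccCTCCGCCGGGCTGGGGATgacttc
Bcl2l1 (chr2:152829700-152829729, minus strand): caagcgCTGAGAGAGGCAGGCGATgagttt
Mcl1 (chr3:95659430-95659459, plus strand): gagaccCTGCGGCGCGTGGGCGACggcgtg
Bcl2l11 (chr2:128147144-128147173, plus strand): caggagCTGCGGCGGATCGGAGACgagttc
Bbc3 (chr7:16313767-16313796, plus strand): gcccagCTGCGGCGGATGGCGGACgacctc
Bid (chr6:120897292-120897321, minus strand): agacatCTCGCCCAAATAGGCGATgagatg
Bad (chr19:6950786-6950815, plus strand): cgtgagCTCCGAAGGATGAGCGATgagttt
Bax (chr7:45466000-45466029, minus strand): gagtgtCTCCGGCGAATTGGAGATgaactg
Bak1 (chr17:27022534-27022563, minus strand): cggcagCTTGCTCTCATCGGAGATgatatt
The fifth codon of the match is alanine in *Bbc3* and serine in *Bad*, and glycine in the other members shown.

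The total on genes was 16732644 counts in replicate 1 and 16245849 in replicate 2. These were 40.6% and 41.2% of the uniquely aligned reads. Levels are given as counts per 1000000 counts of this total (CPM), and 3 counts, the floor used here, correspond to 0.179 and 0.185 CPM. The libraries stood apart in sex-linked genes, with a Y-linked transcript in replicate 1 alone and *Xist*, the marker of a female cell, high in replicate 2. For *Ddx3y*, on the Y chromosome, the libraries held 2450 and 0 counts, and for *Xist*, on the X chromosome, 34 and 25266. All 10 members lie on autosomes. All 8 T cell markers listed were well above the floor, with a sum of 3218 and 3180 CPM, although *Cd3e*, *Cd3g*, and *Trac* were lower in replicate 2 (log2 ratios -0.15, -0.15, and -0.12) and *Lck* was higher (0.16), each past an adjusted p of 0.05 in the exact binomial test described below under every scaling tried. The labels call the cells CD8+ in one field and CD4-CD8- in another, and *Cd8a* had 158.2 and 171.4 CPM and *Cd8b1* 775.1 and 785.6 CPM, while *Cd4* had 0.717 and 1.66 CPM. Transcripts of the endogenous *Cd8* genes and of the cDNAs were not separated here.

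Among the antiapoptotic genes, *Mcl1* and *Bcl2* gave most of the counts, *Bcl2l1* gave fewer, and *Bcl2a1b* gave fewest. *Mcl1* (chr3:95658788-95663176, plus strand) encodes a short-lived protein that binds BIM and BAK. It had 504.6 CPM in replicate 1 and 520.2 CPM in replicate 2, a mean of 512.4 ± 11.0 CPM (SD, n = 2). *Bcl2* (chr1:106538178-106714274, minus strand), the founding member of the family, had 449.8 and 471.1 CPM, a mean of 460.5 ± 15.0 CPM (SD, n = 2). *Bcl2* had 7527 and 7653 counts and *Mcl1* 8443 and 8451, so counting error was small beside the level, and the 95% Wilson interval of *Bcl2* ran from 439.8 to 460.1 CPM in replicate 1. The intervals allow for counting error and nothing else. They take reads as independent, although without molecular identifiers a molecule can be read repeatedly. In a bulk library a lower level cannot be told apart between fewer cells that hold the transcript and less RNA per cell.

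*Bcl2l1* (chr2:152780668-152831728, minus strand), whose main product BCL-XL is known for keeping CD4+CD8+ thymocytes alive, had 36.9 and 42.2 CPM, a mean of 39.5 ± 3.70 CPM (SD, n = 2). The Wilson intervals of the libraries were 34.1 to 40.0 and 39.1 to 45.4 CPM, and they overlapped. Per kb of annotated exon, *Bcl2* exceeded *Bcl2l1* 6.10-fold in replicate 1 and 5.60-fold in replicate 2. Markers of CD4+CD8+ thymocytes were low in the same libraries, with 8 and 19 counts of *Rag1*, 4 and 1 of *Rag2*, and 2 and 2 of *Ptcra*.

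*Bcl2a1b* (chr9:89199209-89207827, plus strand), 1 of the mouse copies that encode A1, had 2.15 and 1.97 CPM, a mean of 2.06 ± 0.129 CPM (SD, n = 2). This was 36 counts in replicate 1 and 32 in replicate 2, above the floor of 3 counts in both. The Wilson intervals were wide, 1.55 to 2.98 and 1.40 to 2.78 CPM. The level of this gene is uncertain for a further reason, since its copies are nearly identical.

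The copies of A1 are shown at the start of the reading frame, coding bases 19 to 48, because this stretch holds bases by which *Bcl2a1a*, *Bcl2a1b*, and *Bcl2a1d* can be told apart. Capitals mark the bases that differ among the copies, and the sequences are from GENCODE M21 (GRCm38).
Bcl2a1a (chr9:88957069-88957098, plus strand): atgCatatccactccctggctgagcactaC
Bcl2a1b (chr9:89199378-89199407, plus strand): atgTatatccactccctggctgagcactaT
Bcl2a1d (chr9:88731672-88731701, minus strand): atgTatatccactccctggctgagcactaC
Over the 516 coding bases, *Bcl2a1b* differs from *Bcl2a1d* at 6 bases (98.8% identical) and from *Bcl2a1a* at 11 (97.9% identical). *Bcl2a1c*, with 384 coding bases, is 82.6% identical to *Bcl2a1b*. Reads were 50 bases long, and 608 of the 768 stretches of 50 bases in *Bcl2a1b* transcripts, 79.2%, occur in transcripts of other genes too. The share was 79.5% for *Bcl2a1d*, 69.0% for *Bcl2a1a*, and 10.4% for *Bcl2a1c*.

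The deposited counts were 0 and 0 for *Bcl2a1a*, 36 and 32 for *Bcl2a1b*, 1 and 1 for *Bcl2a1c*, and 24 and 32 for *Bcl2a1d*, or 61 and 65 over the 4 copies. Counts on A1 were thus divided between the copies *Bcl2a1b* and *Bcl2a1d*, and each was below 3 CPM. For *Bcl2a1a*, 239 of 770 stretches are its own, so a count of 0 rests on less than its whole transcript. Reads aligned to several places were left out of the counts. Per kb of own stretches, rather than of exon, *Bcl2a1b* had 13.4 and 12.3 CPM per kb, against 2.63 and 2.41 CPM per kb of exon. How the uncounted reads would divide among the copies was not tested.

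**Figure D1:**
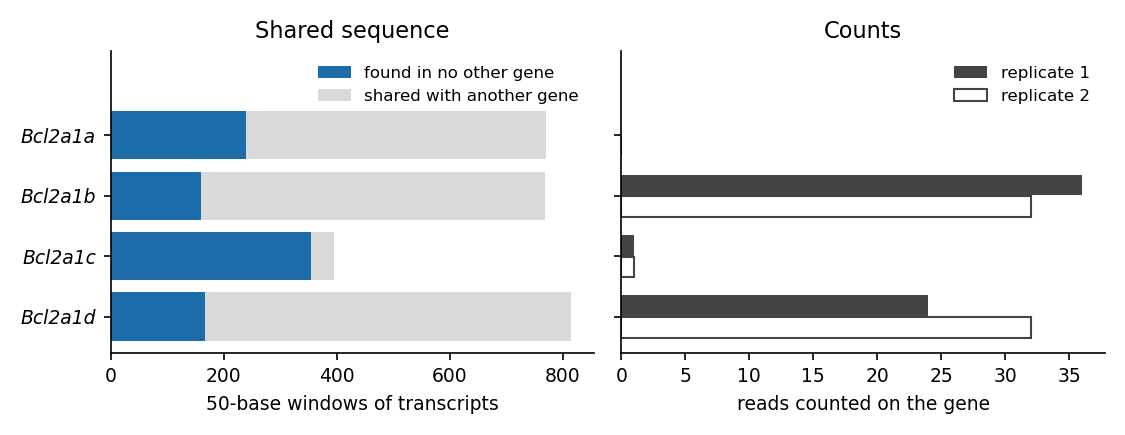
Bars on the left give the 50-base stretches in transcripts of the 4 *Bcl2a1* copies, found in no other gene (blue) or shared (grey), and bars on the right the reads counted on each copy in each library. *Bcl2a1b* and *Bcl2a1d* had 24 to 36 counts per library, *Bcl2a1a* and *Bcl2a1c* 0 or 1, and 160 of 768 stretches of *Bcl2a1b* and 167 of 814 of *Bcl2a1d* are their own.

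All 4 BH3-only genes were measured well above the floor, and *Bcl2l11* and *Bbc3* stood apart between the libraries. *Bcl2l11* (chr2:128126038-128162547, plus strand), which encodes BIM, had 97.0 and 114.5 CPM, a mean of 105.7 ± 12.4 CPM (SD, n = 2). Its Wilson intervals, 92.4 to 101.8 and 109.4 to 119.8 CPM, did not overlap, with replicate 2 the higher. *Bbc3* (chr7:16308393-16318205, plus strand) encodes PUMA, a target of p53. It had 36.9 and 52.0 CPM, a mean of 44.4 ± 10.7 CPM (SD, n = 2), the widest relative spread of the 10 genes. Its intervals of 34.1 to 39.9 and 48.6 to 55.6 CPM were again apart, with replicate 2 the higher.

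*Bid* and *Bad* had lower values in replicate 2 than in replicate 1, although neither passed the test between the libraries given below. *Bid* (chr6:120891930-120916853, minus strand), whose product is cut by caspase 8 and so links death receptors to mitochondria, had 27.6 and 24.3 CPM, a mean of 25.9 ± 2.29 CPM (SD, n = 2). *Bad* (chr19:6941861-6951899, plus strand), whose product is held inactive by phosphorylation when growth factors signal, had 13.4 and 11.6 CPM, a mean of 12.5 ± 1.28 CPM (SD, n = 2). The Wilson intervals of the libraries overlapped for both genes, 25.1 to 30.2 against 22.0 to 26.8 CPM for *Bid* and 11.7 to 15.3 against 10.03 to 13.3 CPM for *Bad*.

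Both effector genes were measured in each library, *Bax* more evenly than *Bak1*. *Bax* (chr7:45461697-45466898, minus strand), whose product moves from the cytosol to mitochondria on activation, had 45.5 and 47.4 CPM, a mean of 46.5 ± 1.31 CPM (SD, n = 2). *Bak1* (chr17:27019810-27029009, minus strand), whose product sits in the mitochondrial membrane, had 49.2 and 58.7 CPM, a mean of 54.0 ± 6.70 CPM (SD, n = 2). The replicates of *Bax* lay within each other's Wilson interval, 42.4 to 48.9 and 44.2 to 50.9 CPM, while those of *Bak1*, 46.0 to 52.7 and 55.1 to 62.6 CPM, did not overlap.

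**Figure D2:**
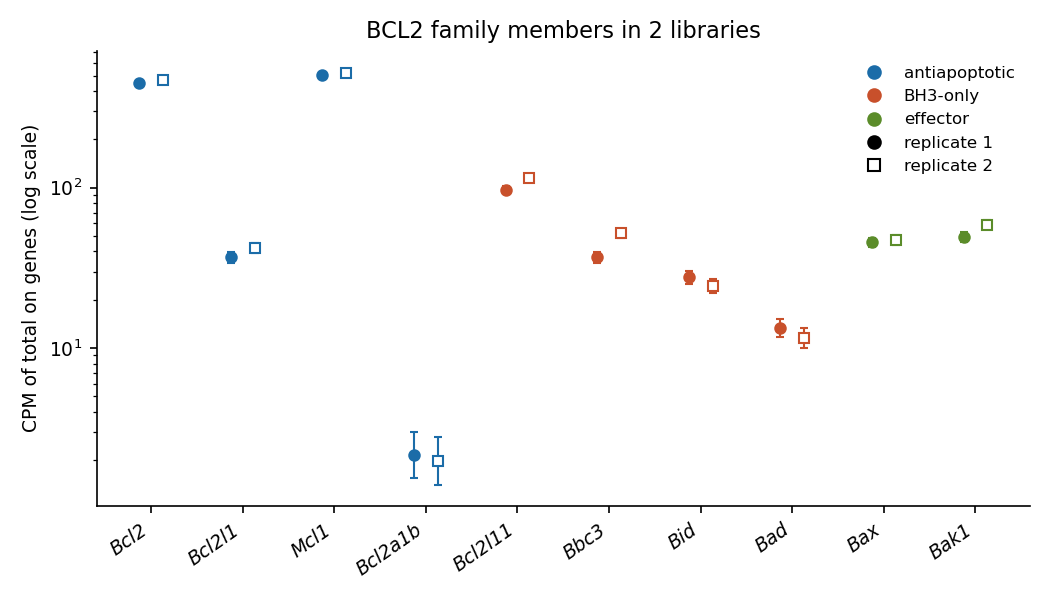
CPM of the 10 genes in each library on a log axis, with bars for the 95% Wilson interval, grouped by role. *Mcl1* and *Bcl2* sit between 449.8 and 520.2 CPM, *Bcl2a1b* at 2.15 and 1.97 CPM, and the intervals of *Bcl2l11*, *Bbc3*, and *Bak1* are apart between the replicates.

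Long transcripts give more reads, so levels of different genes were compared only after division by length, the union of annotated exons, as CPM per kb. This length ran from 817 bases for *Bcl2a1b* to 9157 for *Bcl2*. *Mcl1* was the highest member, with 147.6 and 152.2 CPM per kb, and higher than 98.4% of the 11855 protein-coding genes with at least 10 counts. *Bcl2* followed with 49.1 and 51.4 CPM per kb, above 94.4% of those genes. These 2 survival genes were thus the highest of the family per length, and *Mcl1* exceeded *Bcl2* 3.01-fold in replicate 1 and 2.96-fold in replicate 2.

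*Bax* came next with 28.9 and 30.1 CPM per kb, then *Bak1* with 20.5 and 24.4 and *Bbc3* with 17.4 and 24.5 CPM per kb. *Bcl2l11* had 12.1 and 14.3 CPM per kb, so that *Bbc3* exceeded it 1.44-fold and 1.72-fold per kb of exon. *Bcl2l1* had 8.05 and 9.19, *Bid* 7.76 and 6.85, *Bad* 5.23 and 4.52, and *Bcl2a1b* 2.63 and 2.41 CPM per kb of exon. Among neighbours in this order, only *Bak1* and *Bbc3* overlapped between replicates, and they changed places in replicate 2. *Bcl2l1* and *Bid* were close in replicate 1, with a ratio of 1.04, and further apart in replicate 2, with 1.34.

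**Figure D3:**
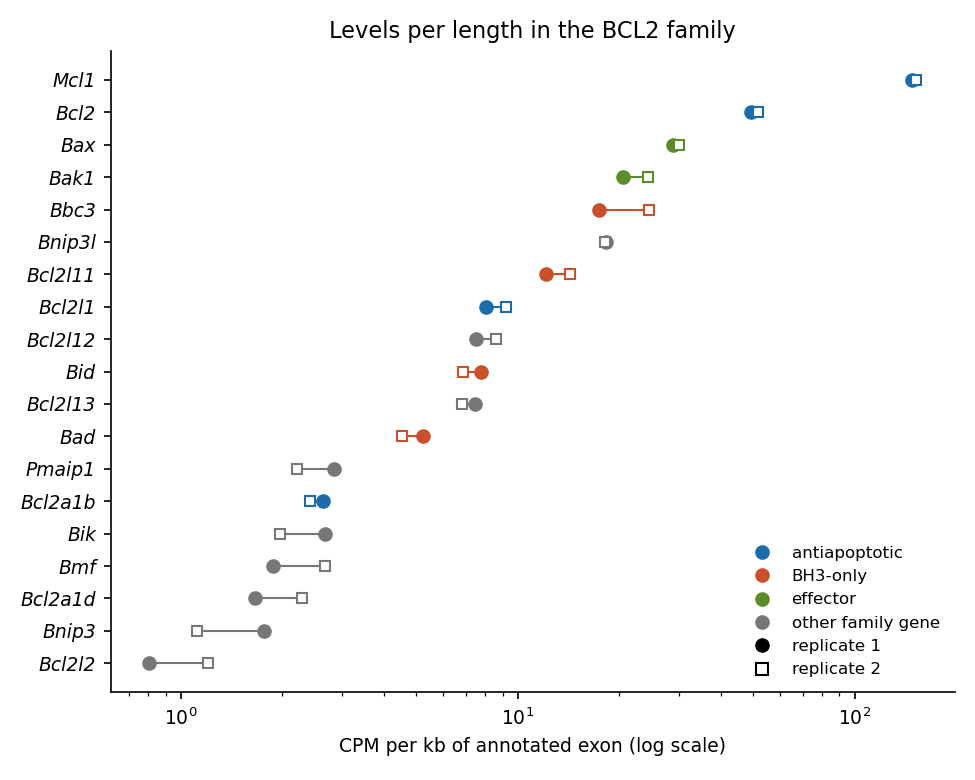
CPM per kb of annotated exon for the 10 genes and the other measured genes of the family in each library, on a log axis. *Mcl1* lies above all others, and the least abundant of the 10, *Bcl2a1b*, lies among *Pmaip1*, *Bik*, and *Bmf*.

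Summed per kb, the antiapoptotic genes reached 207 and 215 CPM per kb, the BH3-only genes 42.4 and 50.1, and the effectors 49.4 and 54.5. The sums hold only the listed members. Other measured genes of these roles, *Bmf*, *Pmaip1*, *Bik*, *Bcl2l2*, and *Bcl2a1d*, were left out of the sums and of the ratios. The ratio of antiapoptotic to BH3-only transcripts was 4.89 in replicate 1 and 4.30 in replicate 2, a mean of 4.59 ± 0.418 (SD, n = 2). The ratio of antiapoptotic to effector transcripts was 4.20 and 3.95, a mean of 4.08 ± 0.178 (SD, n = 2). Such ratios within a library do not depend on how libraries are scaled, but they count transcripts, not proteins, and they depended on the length chosen. With coding sequence length the means were 3.83 to BH3-only and 7.37 to effector transcripts, and with no length correction 5.40 and 10.1. *Mcl1* made up 71.2% and 70.7% of the antiapoptotic sum, *Bcl2* 23.7% and 23.9%, *Bcl2l1* 3.88% and 4.27%, and *Bcl2a1b* 1.27% and 1.12%. Without *Mcl1* the ratios were 1.33 to the BH3-only genes and 1.18 to the effectors. With coding sequence length *Mcl1* made up 42.3% and 41.8% of the antiapoptotic sum and *Bcl2* 52.9% and 53.1%, and the ratios without *Mcl1* were 2.22 and 4.27.

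Within the BH3-only sum, *Bbc3* made up 40.9% in replicate 1 and 48.8% in replicate 2, and *Bcl2l11* 28.5% in both. *Bid* made up 18.3% and 13.7% and *Bad* 12.3% and 9.03%. The share of *Bcl2l11* thus stayed alike between the libraries while that of *Bbc3* was larger in replicate 2. With coding sequence length the order of these genes turned, with *Bcl2l11* at 55.4% and 56.5% of the sum and *Bbc3* at 21.4% and 26.0%. BIM binds all the antiapoptotic proteins, and its transcript was exceeded per kb of exon by *Mcl1* 12.2-fold and 10.7-fold and by *Bcl2* 4.07-fold and 3.61-fold, while *Bcl2l1* stood at 0.667 and 0.645 of it. Of the effector sum, *Bax* made up 58.5% and 55.2% and *Bak1* the rest.

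The order depended on the length by which counts were divided. With the longest coding transcript, 8 of the 10 genes kept their place, and *Bbc3* and *Bak1* changed places. With the coding sequence alone, 5 kept it. *Bcl2* then came first with 650.4 CPM per kb of coding sequence, ahead of *Mcl1* with 516.0, and *Bcl2l11* moved from place 6 to place 3 with 179.8 CPM per kb of coding sequence. *Bcl2* and *Bcl2l11* are the members with the longest exon unions, 9157 and 8029 bases, against 708 and 588 bases of coding sequence. Which 3′ ends these cells use was not measured. With 50-base stretches found in no other gene, 7 kept their place and *Bcl2a1b* moved from place 10 to place 7.

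**Figure D4:**
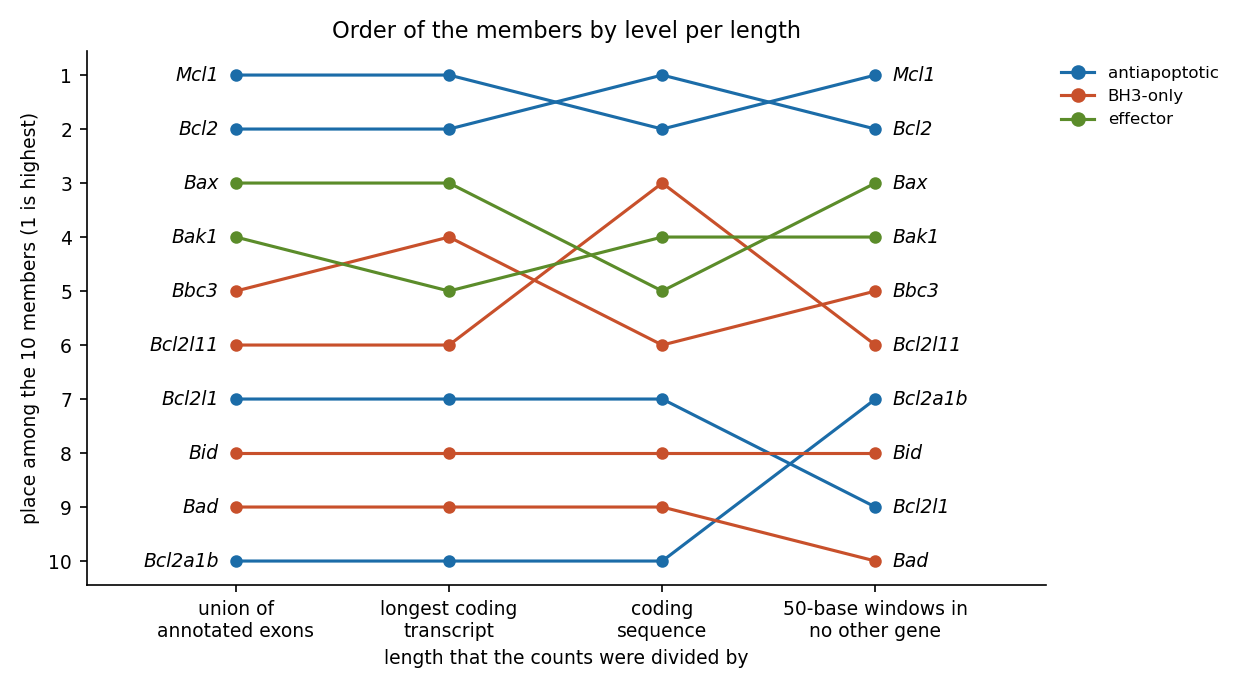
Place of each of the 10 genes by mean level per length (1 is highest) under 4 choices of length. *Mcl1* and *Bcl2* hold the top 2 places under each, changing order with coding sequence, and *Bcl2a1b* rises from 10 to 7 when only stretches found in no other gene are counted.

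With a single group, the only test possible was between the libraries. A two-sided exact binomial test compared each gene's counts with the libraries' totals, with Benjamini-Hochberg adjustment over the 15949 genes that had at least 10 counts. No member, 0 of 10, passed both an adjusted p of 0.05 and a 2-fold difference, where 1.52% of all genes tested did, 150 higher in replicate 2 and 92 lower. With library sizes from TMM or DESeq2 this split was 98 to 99. At an unadjusted p under 0.05, 6 members differed, against 27.7% of all genes tested. edgeR's exact test, run with an assumed biological coefficient of variation of 0.1, also called 0 members.

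With no minimum fold, 4 of the 10 members differed at an adjusted p under 0.05, against 16.3% of all genes tested and 25.8% of the 8299 genes with at least 400 counts. Of all genes tested, 2146 were higher in replicate 2 and 450 lower, a split that became 824 to 859 with TMM library sizes. All 4 members were higher in replicate 2. *Bbc3* led with a log2 ratio of replicate 2 to replicate 1 of 0.49 (exact binomial test, adjusted p = 4.19e-09), followed by *Bcl2l11* with 0.24 (adjusted p = 2.61e-05). *Bak1* had a log2 ratio of 0.25 (adjusted p = 0.00275) and *Bcl2* of 0.07 (adjusted p = 0.0318). The other members, at adjusted p from 0.0860 to 0.932, had log2 ratios of 0.19 for *Bcl2l1*, 0.04 for *Mcl1*, -0.13 for *Bcl2a1b*, -0.18 for *Bid*, -0.21 for *Bad*, and 0.06 for *Bax*. The median log2 ratio was 0.06 for the members and 0.08 for all genes tested. The median size of the log2 ratio, in either direction, was 0.19 for the 9 members with at least 400 counts and 0.11 for all genes at that depth.

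Scaling changed which members differed. With TMM or DESeq2 library sizes the median of all genes tested moved to 0 within rounding. *Bbc3* then had a log2 ratio of 0.42 (adjusted p = 1.98e-06 with TMM) and *Bcl2l11* of 0.16 (adjusted p = 0.0135), and these 2 members still differed, against 10.6% of all genes tested. *Bak1* at 0.18 (adjusted p = 0.0814) and *Bcl2* at -0.01 (adjusted p = 0.870) no longer did, the latter with the opposite sign, and *Mcl1* at -0.03 and *Bax* at -0.02 also turned. The test allows for counting error only. With edgeR's exact test at a coefficient of variation of 0.1, the adjusted p of *Bbc3* was 0.778.

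**Figure D5:**
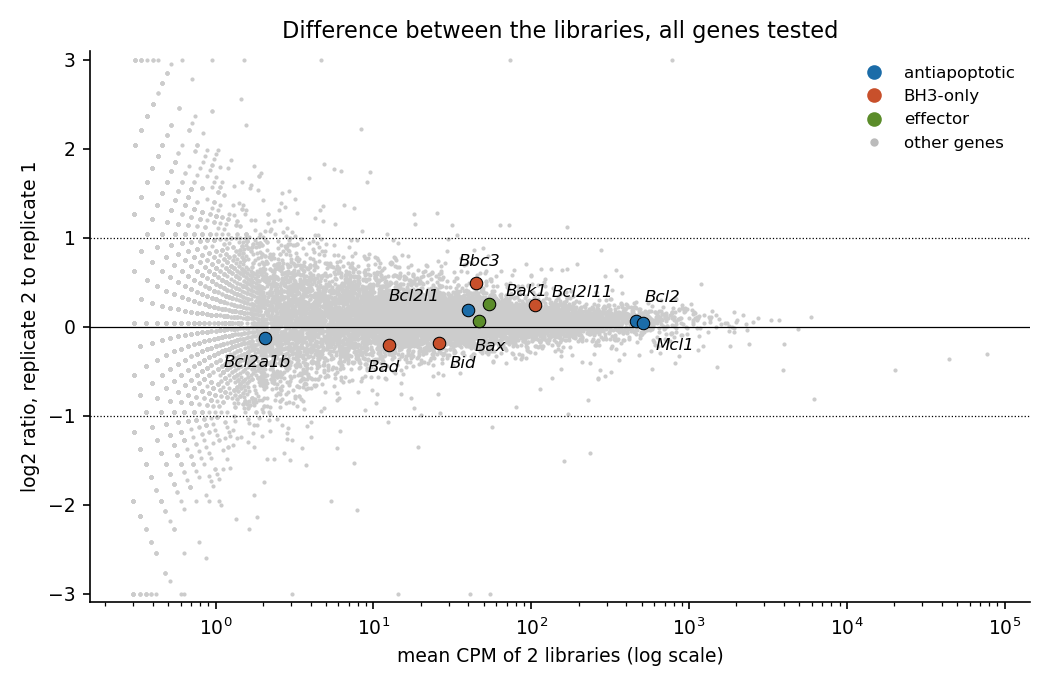
Log2 ratio of replicate 2 to replicate 1 against mean CPM (log axis) for all genes tested in grey and the 10 genes in colour. Genes beyond 3 in either direction, 41 in all, are drawn at the edge, and 15 with 0 counts in a library are not drawn. All 10 lie within the dotted lines for 2-fold, with *Bbc3* the highest at 0.49.

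Levels of markers of other cells were set beside these differences. The 3 NK and innate-like markers summed to 43.0 and 56.0 CPM, with the larger sum in replicate 2, as for *Bbc3* and *Bcl2l11*. *Ncr1* went from 45 to 112 counts (log2 ratio 1.36, exact binomial test, adjusted p = 8.24e-07), and it was higher in replicate 2 under every scaling tried. *Klrb1c* had 370 and 446 counts (adjusted p = 0.0174) and passed only with the total on genes, and *Zbtb16*, with 305 and 351 counts, did not pass (adjusted p = 0.134). The part of these markers, and of the T cell markers that differed, in the differences of *Bbc3* and *Bcl2l11* was not tested. *Bcl2a1b* is known from myeloid cells too, and the 8 myeloid and dendritic markers summed to 12.4 and 13.8 CPM, mostly from *Csf1r* (163 and 191 counts) and *Itgam* (34 and 18 counts), with *Cd14* at 0 and *Lyz2* at 0 and 2 counts. The 5 B cell markers summed to 13.5 and 15.2 CPM, mostly from *Cd79b* (196 and 227 counts), with *Pax5* at 1 and 0 counts. The 4 thymic epithelium markers summed to 3.17 and 3.51 CPM and the 7 markers of CD4+CD8+ thymocytes to 42.7 and 40.1 CPM.

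Some members share exon sequence with other genes, and the strand setting of the counting is not given in the sources used here. *Bid* overlaps 628 bases of exon of *Bcl2l13* on the opposite strand, and *Bcl2l13*, itself of the family, had 1132 and 1011 counts against 461 and 395 for *Bid*. *Bad* overlaps 524 bases of *Gpr137*, which had 146 and 198 counts against 224 and 188 for *Bad*. *Bak1* overlaps 614 bases of *Ggnbp1* (238 and 306 counts), and *Bcl2* overlaps 558 bases of *D630008O14Rik* (663 and 643 counts), in both cases on the opposite strand. *Bcl2a1b* and *Bax* overlap predicted genes on their own strand, by 401 bases of *Gm29094* and by 192 bases of *Gm45808*. *Gm29094* had 0 counts in both libraries, and *Gm45808* is not among the symbols counted. Reads assigned ambiguously were left out, so the 0 counts do not show that *Bcl2a1b* lost no reads there. In GENCODE M21, *Mcl1*, *Bcl2l1*, *Bcl2l11*, and *Bbc3* overlap no exon of another gene. Whether this also holds in the annotation used for the counting is not known.

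Of the 16 other genes of the family, 9 had at least 10 counts and 7 were at or under the floor of 3 counts in at least 1 library. The most abundant was *Bnip3l*, whose product acts in the removal of mitochondria, with 1182 and 1139 counts and a mean of 18.2 CPM per kb. *Bcl2l12* followed with 8.08, *Bcl2l13* with 7.15, and *Pmaip1*, which encodes the MCL1-binding BH3-only protein NOXA, with 2.53 CPM per kb. *Bik* had 2.32, *Bmf* 2.27, *Bcl2a1d* 1.97, *Bnip3* 1.44, and *Bcl2l2*, which encodes the antiapoptotic BCL-W, 1.00 CPM per kb. By mean level per length, 5 of the 10 members, from *Mcl1* to *Bbc3*, were thus above every other gene of the family, although *Bbc3* was below *Bnip3l* in replicate 1, and *Bcl2a1b* at 2.52 CPM per kb was level with *Pmaip1*. The genes at or under the floor were *Bcl2a1a*, *Bcl2l10*, and *Bok* with 0 and 0 counts, *Bcl2a1c* and *Hrk* with 1 and 1, *Bcl2l15* with 3 and 3, and *Bcl2l14* with 4 and 0.

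Between the libraries, 0 of the 9 other family genes tested differed at least 2-fold by the exact binomial test, 0 by edgeR's exact test, and 3 had an unadjusted p under 0.05, where 1.52% and 27.7% of all genes tested passed the first and last of these. *Bmf*, another BH3-only gene, had 165 and 228 counts, and with no minimum fold it was higher in replicate 2 (log2 ratio 0.51, exact binomial test, adjusted p = 0.00630). With TMM library sizes it stayed so (adjusted p = 0.0359), and *Bcl2l13* was then lower (log2 ratio -0.20, adjusted p = 0.0204).

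The genes that act after the mitochondria open were all measured. All 18 were above the floor in both libraries, with a median of 9.53 CPM per kb, between *Bcl2l1* and *Bcl2l11*. *Vdac2*, a channel of the outer mitochondrial membrane that binds BAK, was the highest at 25.4 CPM per kb, close to *Bak1* itself at 22.4, followed by *Birc2* at 15.3 and *Htra2* at 14.8. The lowest were *Birc5* at 1.91 and *Casp9*, the initiator caspase of this pathway, at 2.43 CPM per kb. None of the 18 differed at least 2-fold between the libraries by the exact binomial test or by edgeR's, and 8 had an unadjusted p under 0.05 (27.7% of all genes tested). With no minimum fold, 2 were higher in replicate 2, *Casp2* (log2 ratio 0.18, adjusted p = 0.0190) and *Aifm1* (log2 ratio 0.25, adjusted p = 0.0195), and neither passed with TMM library sizes.

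Of the 7 death receptor genes, which feed into *Bid*, *Casp8* was the highest with 47.0 and 43.1 CPM per kb, above *Bid* at 7.76 and 6.85. *Tnfrsf1a* had a mean of 17.0 and *Cflar*, the inhibitor of caspase 8, of 10.9 CPM per kb. The lowest were *Tnfrsf10b* at 1.08, *Fadd* at 3.59, and *Ripk1* at 6.14 CPM per kb. *Casp8* was lower in replicate 2 (log2 ratio -0.12, exact binomial test, adjusted p = 0.0346), as was the value of *Bid*, which did not pass the test. None of the 7 differed at least 2-fold by that test or by edgeR's, and 2 had an unadjusted p under 0.05 (27.7% of all genes tested).

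Genes known to regulate the members were measured at higher levels, and all 22 listed were above the floor, with a median of 29.7 CPM per kb. *Ywhaz*, which encodes an adaptor that holds phosphorylated BAD, was the highest at 143 CPM per kb, beside *Mcl1* at 150 and far above *Bad* at 4.88. The cytokine receptor chains *Il2rb* at 130 and *Il2rg* at 102 CPM per kb came next. Signals through these chains are known to raise *Bcl2* and *Mcl1*. The lowest were *Nr4a3* at 4.19, *Fbxw7*, part of a ligase that degrades MCL1, at 4.71, and *Stat5a* at 9.999 CPM per kb. Chosen after their values were seen, *Il7r* had a mean of 77.4, *Trp53*, which encodes the p53 that acts on *Bbc3* and *Bax*, 50.2, and *Foxo1* 30.3 CPM per kb.

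Between the libraries, none of the 22 regulators differed at least 2-fold by the exact binomial test or by edgeR's, and 10 had an unadjusted p under 0.05 (27.7% of all genes tested). With no minimum fold, 5 were higher in replicate 2 and 1 was lower. Of all genes tested 16.3% differed, and of those with at least 400 counts, as all 22 had, 25.8%. The higher ones were *Il2rb* (log2 ratio 0.18), *Il4ra* (0.21), *Akt1*, whose kinase phosphorylates BAD (0.21), *Dynll2*, whose product binds BMF (0.27), and *Huwe1*, a ligase for MCL1 (0.06). *Il2rg* was lower, with a log2 ratio of -0.16 (adjusted p = 1.67e-05). With TMM library sizes *Huwe1* no longer differed and *Foxo1*, *Il7r*, *Ywhaz*, and *Dynll1* were lower in replicate 2. With no minimum fold, *Trp53* (3349 and 3352 counts) did not pass the exact binomial test under any scaling tried, while *Bbc3* did under each. The part of p53 in the difference of *Bbc3* was not tested.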

How the data were processed

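RNA was extracted from sorted CD4- mature thymocytes with TRIzol and an RNeasy kit, and poly(A) libraries were made with a NEBNext kit and sequenced as single-end 50-base reads. Per the submitters' processing notes, reads were mapped with TopHat2 2.1.1 to mm10 (GRCm38), and the authors deposited raw counts of reads per gene from HTSeq 0.6.1, without normalization. The annotation and strand setting of the counting are not given in the sources used here. Uniquely aligned reads that the counting gave no feature (55.9% in both libraries) or assigned ambiguously (3.52% and 2.92%) were left out. Alignments to several places were also left out. Where the reads without a feature lay, within genes or between them, was not examined.

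CPM used the total on genes. Per-kb levels used exon unions of GENCODE M21, in which 46394 of the 48321 symbols were found. Intervals are 95% Wilson intervals. The exact binomial test (scipy 1.17.1; two-sided) was tested on simulated data and then applied to the libraries, and its p-values were adjusted after Benjamini and Hochberg (statsmodels 0.14.6), with edgeR 4.0.16 and DESeq2 1.42.0 as alternatives. Named genes are the 10 members, all other family genes, and list genes that were called, at or under the floor, or among the 3 highest or lowest of their list. Values of 2 list genes are not reported here. The members and gene lists were chosen with earlier results of these data known. Each library is 1 replicate, numbered as in the labels.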

Additional observations from a re-analysis of the deposited data

How the results depend on the processing

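At 2-fold, 0 members differed between the libraries under each scaling and minimum count tried and by edgeR's exact test, while 6 had an unadjusted p under 0.05 (27.7% of all genes tested). Without a minimum fold the members that differed numbered 4 by total counts and, in alternatives added after seeing the data, 2 with TMM, 2 with DESeq2, and 3 without 393 mitochondrial and ribosomal RNA genes. The 242 genes of the whole table became 55 at a minimum of 100 counts and 60 with edgeR's exact test. Without a minimum fold they became 2596, and 1683, 1685, and 1750 under those scalings. With coding sequence length, 5 of 10 members kept their place in the order. The ratio of antiapoptotic to BH3-only transcripts was 3.62 with the longest coding transcript, 3.83 with coding sequence, 5.40 with no length correction, and 1.33 without *Mcl1*. The ratio to effectors was 3.58, 7.37, 10.1, and 1.18 under the same changes. In an alternative added after seeing the data, coding sequence length without *Mcl1*, the ratios were 2.22 and 4.27. Leaving out each replicate gave 8 to 10 places kept and ratios of 4.30 to 4.89 and 3.95 to 4.20. Leaving those RNA genes out of the total raised the CPM of 9 members by more than 1 SD, and TMM or DESeq2 moved none so far. The cause of each change was not tested beyond the change of length, total, or genes itself. The depth puts the floor at 0.179 and 0.185 CPM, and in 2 libraries of 1 group the spread between mice cannot be told apart from sex. No paired analysis was possible because the series holds 1 group.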
